A study of Mus musculus with 3 samples.

Results

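Nuclei of GABA neurons that carried *Adarb2* but no *Vip* were picked from single-nucleus RNA sequencing of mouse prefrontal cortex (PFC). A nucleus was a member if it had at least 2 unique molecules (UMIs) of *Adarb2*, at least 1 UMI over *Gad1*, *Gad2* and *Slc32a1*, no *Slc17a7*, *Vip* or *Pvalb*, at most 1 UMI of *Sst* and none of *Th* or *Pax6*. There were 530 such nuclei among 43464 kept nuclei (at least 200 genes and under 10% mitochondrial counts). Of these, 140 of 14630 came from the C57BL/6 library, 166 of 14056 from the Nav1 KO library and 224 of 14778 from the BTBR library. These counts of *Adarb2* and of the absent genes chose the members, so they are a description and not a result.

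All mice were males of 6 to 8 weeks, with no drug treatment named for these samples. The C57BL/6 library pooled the PFC of 5 wild-type mice, and the Nav1 KO library that of 4 homozygous knockouts made by a CRISPR deletion in exon 1 of *Nav1* in C57BL/6J. The third library came from the inbred strain BTBR T<+> Itpr3<tf>/J, whose number of mice was not given in the sources used here. Every group was 1 library, so no difference between groups had a replicate check, and the intervals between groups cover counting error only. *Nav1* lies on chromosome 1 (135434580 to 135607295, minus strand, mm10), and reads from the 3′ end of the transcript lie outside the deleted part and so do not check the knockout label. Nuclei were sorted by staining for NeuN, a neuronal nuclear protein, which sets the proportion of neurons, so shares are also given within GABA nuclei.

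Cortical interneurons of the caudal ganglionic eminence keep *Adarb2*, a brain-specific relative of the RNA-editing enzymes that has little editing activity of its own. They include the *Vip* cells, which mostly inhibit other interneurons, neurogliaform cells marked by *Lamp5*, which release GABA diffusely and often carry *Npy*, *Reln* and *Ndnf*, and basket cells marked by *Sncg*, *Cck* and the cannabinoid receptor gene *Cnr1*. Interneurons with *Sst* or *Pvalb* come instead from the medial ganglionic eminence, where *Nkx2-1* and then *Lhx6* set their fate. *Meis2*, *Tshz1*, *Pbx3* and *Foxp2* are homeobox, zinc finger and forkhead factors found in GABA neurons of the striatum and olfactory bulb. The medial genes and these striatal and bulb genes were followed as markers of other cells.

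The median depth of members was 1977 UMIs in C57BL/6, 2253 in Nav1 KO and 2001 in BTBR. It lay below that of all kept nuclei (2074, 2754 and 2510.5 UMIs) and above that of all GABA nuclei (1821, 2172.5 and 1978 UMIs) in each library. Their summed counts were 331526, 411394 and 512934, so that 3 counts corresponded to 9.05, 7.29 and 5.85 counts per 1000000 (CPM) in these libraries, in that order. The median share of mitochondrial counts was 0.692%, 0.797% and 0.635%. The *Adarb2* count had a median of 3 in each library and a maximum of 44, 39 and 34. Exactly 2 UMIs of *Adarb2*, the lowest value inside the rule, were found in 46, 69 and 80 members, and 107, 147 and 164 further nuclei met every other criterion with 1 UMI. No barcode was shared between 2 libraries' members, although 66 barcodes of kept nuclei were common to C57BL/6 and Nav1 KO, 59 to C57BL/6 and BTBR and 55 to Nav1 KO and BTBR. No doublet caller was run.

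*Lamp5* was found in a minority of members of each library, and *Sncg* gave almost no UMIs. *Lamp5* (lysosome-associated membrane protein family member 5, chromosome 2, 136052239 to 136069917) had 49, 65 and 110 counts in C57BL/6, Nav1 KO and BTBR. Its level was 148 CPM (95% Poisson interval 109 to 195) in C57BL/6, 158 CPM (122 to 201) in Nav1 KO and 214 CPM (176 to 258) in BTBR, and the 3 intervals overlapped. At least 1 UMI of *Lamp5* was found in 25 of 140 members (17.9%, exact binomial interval 11.9 to 25.2%), 38 of 166 (22.9%, 16.7 to 30.0%) and 56 of 224 (25.0%, 19.5 to 31.2%). Without possible doublets, that is, nuclei with 2 or more UMIs of other cells' lists or UMIs above the 95th percentile, it was 2 of 33 (6.06%, 0.743 to 20.2%), 8 of 38 (21.1%, 9.55 to 37.3%) and 20 of 80 (25.0%), and the C57BL/6 level was 58.3 CPM, from 3 counts. This filter left only 2966 of 14630, 2273 of 14056 and 2806 of 14778 kept nuclei. It thus took out most nuclei and not doublets alone, here and wherever it is used below.

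In oligodendrocytes, which should lack *Lamp5*, the share with a UMI was 2.50% (3 of 120), 6.00% (6 of 100) and 6.03% (7 of 116), at median depths of 1048.5, 1407.5 and 1469.5 UMIs. With every nucleus thinned to 1000 UMIs the share was 11.5%, 12% and 16.8% of members and 0%, 2.60% and 1.30% of oligodendrocytes. *Lamp5* in members thus stood above the oligodendrocyte level in each library before and after thinning.

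*Sncg* (synuclein gamma, chromosome 14, 34370274 to 34374789, minus strand) had 0 counts in the 140 members of C57BL/6 and in the 166 of Nav1 KO, which allow shares of nuclei with a UMI of up to 2.60% and 2.20%, and 6 counts in 4 of the 224 members of BTBR (1.79%, 0.489 to 4.51%). None of those 4 nuclei carried *Lamp5*, and none had more than 1 UMI of *Meis2*. *Sncg* was at 0 in the oligodendrocytes of the 3 libraries. Neither gene was seen in 115, 128 and 164 members, that is, in most members of each library. A gene with few transcripts is often missed at this depth, so absence of a UMI does not show absence of the gene, and the comparison of *Lamp5* with *Sncg* nuclei could not be made.

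Other genes of the neurogliaform and *Cck* basket types were measured in every library. *Npy*, the neuropeptide Y gene, stood at 1167 CPM in C57BL/6, 625 in Nav1 KO and 825 in BTBR, and *Kit*, a receptor tyrosine kinase, at 528, 284 and 394 CPM. *Reln*, a secreted glycoprotein, was at 308, 141 and 437 CPM, and *Ndnf*, a secreted neurotrophic factor, at 163, 131 and 183 CPM. Among basket type genes *Cnr1* was at 902, 355 and 996 CPM and *Cck*, cholecystokinin, at 724, 204 and 540 CPM. Nav1 KO had the lowest value of the 3 libraries for each of these 6 genes, a pattern that is taken apart next. The medial factor *Lhx6* was at or under 3 counts in every library (2, 1 and 1).

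*Meis2* divided the members. This homeobox gene (chromosome 2, 115863064 to 116065839, minus strand) was at 552 CPM in C57BL/6, 1823 CPM in Nav1 KO and 858 CPM in BTBR. At least 2 UMIs of *Meis2* were found in 35 members of C57BL/6 (25.0%), 110 of Nav1 KO (66.3%) and 81 of BTBR (36.2%). The split between 0 or 1 UMI and 2 or more was chosen after these values were seen, so what follows from it is a description with no test. At least 1 UMI of *Meis2* was present in 32.9%, 72.9% and 46.4% of members, against 20.9%, 24.3% and 19.7% of *Vip* nuclei, 20.4%, 19.0% and 17.1% of *Sst* nuclei, and 15.0%, 26.0% and 34.5% of oligodendrocytes.

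High *Meis2* nuclei were found at low and middle counts of *Adarb2*, the gene that chose the members, so their shares are a description. Among members with exactly 2 UMIs of *Adarb2*, 15 of 46 in C57BL/6 (32.6%), 57 of 69 in Nav1 KO (82.6%) and 37 of 80 in BTBR (46.3%) had 2 or more UMIs of *Meis2*. Among those with 3 or more it was 20 of 94 (21.3%), 53 of 97 (54.6%) and 44 of 144 (30.6%), so that most of the 35 and 81 high *Meis2* nuclei of C57BL/6 and BTBR had 3 or more. Among those with 10 or more UMIs of *Adarb2* it was 1 of 24 (4.17%), 1 of 15 (6.67%) and 4 of 30 (13.3%). Just outside the rule, with 1 UMI of *Adarb2*, the share was 38.3%, 70.7% and 50.6%. *Cnr1* had a UMI in 19 of 24, 11 of 15 and 28 of 30 members with 10 or more UMIs of *Adarb2*, although these nuclei were also deeper (medians of 2623, 3275 and 2728 UMIs). *Lamp5* had a UMI in 2, 9 and 3 of these nuclei, *Npy* in 6, 7 and 9 and *Kit* in 6, 9 and 6. The shares of *Lamp5*, *Npy* and *Kit* lay below those at 3 or more UMIs of *Adarb2* in C57BL/6 and BTBR and above them in Nav1 KO.

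**Figure D1:**
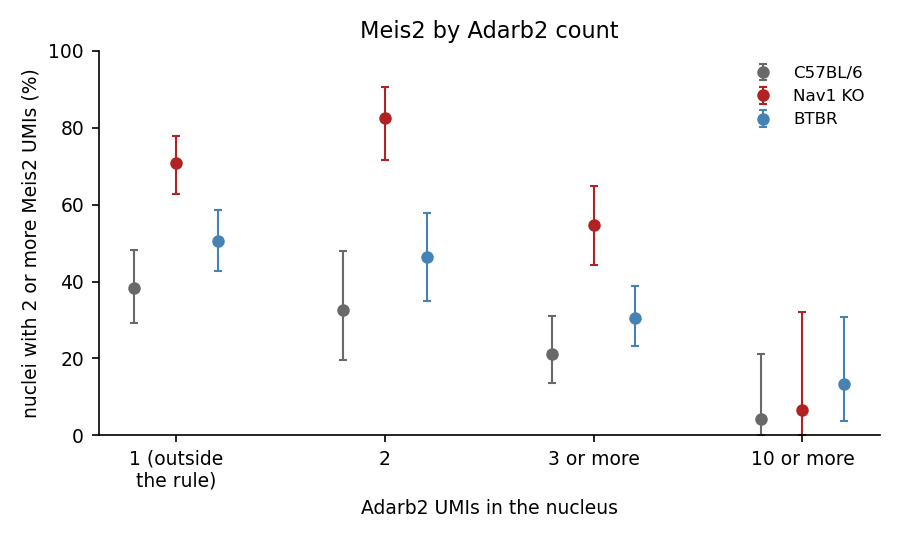
Share of nuclei with 2 or more *Meis2* UMIs (%) by the number of *Adarb2* UMIs in the nucleus, for C57BL/6 (grey), Nav1 KO (red) and BTBR (blue), with exact binomial 95% intervals. The group with 10 or more is part of the group with 3 or more, and the shares fall from 32.6%, 82.6% and 46.3% at 2 UMIs to 4.17%, 6.67% and 13.3% at 10 or more.

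Genes of the neurogliaform and basket lists were low where *Meis2* was high. The libraries were pooled, and 5761 genes had at least 40 counts. In members with 2 or more *Meis2* UMIs, 214 of these (3.71%) were at least 2-fold higher than in those with 0 or 1. Another 376 (6.53%) were at least 2-fold lower. The pooled ratios take no account of the library, so differences between libraries enter these counts and those of the lists. Of the 9 neurogliaform genes measured, 6 were at least 2-fold lower and none higher, and all 6 measured genes of the *Sncg* basket list were lower. *Kit* was at 136, 40.2 and 33.8 CPM in the high *Meis2* nuclei of C57BL/6, Nav1 KO and BTBR and at 745, 769 and 637 CPM in the others, a pooled ratio of 0.0812 (0.0555 to 0.115). *Cnr1* was at 203, 121 and 217 CPM against 1288, 820 and 1523 CPM (ratio 0.131, 0.106 to 0.161), so each library showed the same order for both genes. *Npy* (ratio 0.146, 0.120 to 0.176), *Cck* (0.145, 0.111 to 0.186), *Reln* (0.203, 0.152 to 0.269) and *Lamp5* (0.239, 0.165 to 0.338) were also lower. The *Lamp5* ratio differed between libraries, at 0.587 (0.279 to 1.15) in C57BL/6, 0.103 (0.0484 to 0.199) in Nav1 KO and 0.270 (0.151 to 0.456) in BTBR. Of 5 genes common to GABA neurons that the rule did not use, 3 were at least 2-fold lower and none higher, with a median ratio of 0.446. Among them were *Erbb4*, a neuregulin receptor gene (0.306, 0.228 to 0.406), and *Dlx6os1*. *Npas1*, a transcription factor of caudal interneurons, had 4 counts against 113 (0.0389, 0.0104 to 0.102).

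Some genes of striatal and bulb neurons and of glia were high in the same nuclei. *Tshz1* was at 161, 314 and 261 CPM against 32.8, 14.5 and 49.0 CPM (ratio 7.28, 4.72 to 11.7), and *Pbx3* at 432, 790 and 845 CPM against 155, 131 and 170 CPM (4.71, 3.79 to 5.90). *Foxp2* was at 551, 263 and 367 CPM against 46.8, 116 and 55.6 CPM (5.44, 3.90 to 7.74). Of the 6 striatal medium spiny neuron genes measured, 5 were at least 2-fold higher. They included *Rgs9*, a regulator of G protein signalling, at 4.04 (2.85 to 5.86), *Penk*, the enkephalin precursor, at 3.21 (2.32 to 4.50) and *Tac1*, the substance P precursor, at 3.03 (2.06 to 4.54). The libraries differed here: *Tac1* was at 314 and 217 CPM in the high *Meis2* nuclei of C57BL/6 and BTBR against 65.6 and 22.9 CPM in the others, but at 73.1 against 116 CPM in Nav1 KO. *Etv1*, an ETS factor, was higher in the high *Meis2* nuclei of Nav1 KO (201 against 7.25 CPM) and, by less, of C57BL/6 (42.4 against 28.1 CPM). Of 4 bulb interneuron genes measured, *Tshz1* and *Etv1* were at least 2-fold higher and *Dlx6os1*, a noncoding transcript also on the list of common GABA genes, at least 2-fold lower (0.446, 0.380 to 0.522). Of 3 astrocyte genes measured, 2 were at least 2-fold higher, *Slc4a4*, a bicarbonate transporter, at 4.60 (3.20 to 6.78) and *Slc1a3*, a glutamate transporter, at 2.64 (1.70 to 4.18). The ensheathing glia gene *Apod* was at 4.94 (3.15 to 8.05), the mural cell gene *Vtn* at 2.20 (1.24 to 4.03), and 1 of 2 oligodendrocyte genes was at least 2-fold higher. These ratios pool the libraries. In members of Nav1 KO the ensheathing and mural lists were at 13.8 and 15.5 times their C57BL/6 levels. High *Meis2* nuclei held 273542 counts in Nav1 KO and 118015 in C57BL/6, and the others 137852 and 213511. Differences between libraries therefore enter the pooled ratios of *Apod* and *Vtn*. The part of RNA of glia and vessels in the other ratios was not tested. *Filip1l*, a filamin-binding protein gene, had 126 counts against 4 (34.6, 13.2 to 129), and only 2 of them came from C57BL/6 (1 in each set).

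**Figure D2:**
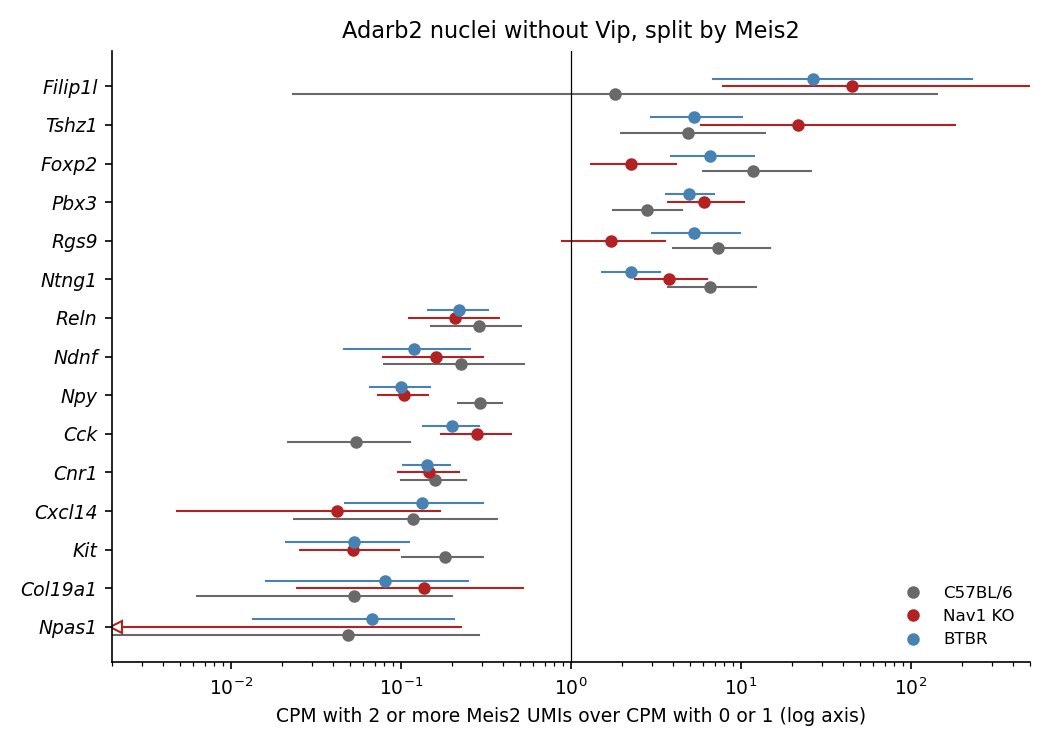
Ratio of CPM in members with 2 or more *Meis2* UMIs to CPM in members with 0 or 1 (log axis), per library, with binomial 95% intervals from counting error; the open triangle is a gene at 0 counts in the numerator. *Reln*, *Ndnf*, *Npy*, *Cck*, *Cnr1*, *Cxcl14*, *Kit*, *Col19a1* and *Npas1* lie below 1 in each library and *Tshz1*, *Foxp2* and *Pbx3* above it.

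The name *Adarb2* interneuron without *Vip* therefore fitted the data unevenly: members with 0 or 1 *Meis2* UMI carried the neurogliaform and basket genes, and those with 2 or more carried few. The summed level of the neurogliaform list was 3485, 3642 and 3658 CPM in C57BL/6, Nav1 KO and BTBR members with 0 or 1 *Meis2* UMI and 1093, 592 and 691 CPM in the others. For the *Sncg* basket list it was 3124, 1676 and 2965 CPM against 407, 289 and 502 CPM. In *Sst* nuclei the basket list stood at 467, 590 and 532 CPM, above the high *Meis2* members in each library, and the neurogliaform list at 3598, 2770 and 2650 CPM, where *Npy* was its most abundant gene. *Lamp5* was found in 18.1%, 48.2% and 32.9% of members with 0 or 1 *Meis2* UMI and in 17.1%, 10.0% and 11.1% of the others. The members are called *Adarb2* nuclei below. Counts over all genes are given with and without the high *Meis2* nuclei, and counts on single lists only in part. Calls of genes described in the text that were lost without these nuclei are named.

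*Adarb2* nuclei took a larger share of the BTBR than of the C57BL/6 library beyond counting error, and the direction in Nav1 KO depended on *Meis2*. They made up 0.957% (0.806 to 1.13%) of kept nuclei in C57BL/6, 1.18% (1.01 to 1.37%) in Nav1 KO and 1.52% (1.32 to 1.73%) in BTBR. The ratio to C57BL/6 was 1.23 (0.980 to 1.56) for Nav1 KO, whose interval included 1, and 1.58 (1.28 to 1.97) for BTBR. Within GABA nuclei (1601, 1600 and 1911) the ratios were 1.19 (0.942 to 1.50) and 1.34 (1.08 to 1.67). Among *Adarb2*, *Vip*, *Sst* and *Pvalb* nuclei together they were 1.17 (0.933 to 1.48) and 1.16 (0.937 to 1.45), both with 1 inside the interval.

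There were 105, 56 and 143 *Adarb2* nuclei with 0 or 1 *Meis2* UMI, or 0.718%, 0.398% and 0.968% of kept nuclei. Nav1 KO then had 0.555 times the C57BL/6 share (0.394 to 0.775), the reverse of the ratio for all *Adarb2* nuclei, and BTBR 1.35 times (1.04 to 1.75). Within GABA nuclei these ratios were 0.534 (0.379 to 0.745) and 1.14 (0.881 to 1.48). Among the 4 interneuron classes, each with 0 or 1 *Meis2* UMI, they were 0.734 (0.521 to 1.02) and 1.09 (0.838 to 1.41), both with 1 inside the interval. With 2 or more *Meis2* UMIs the shares were 0.239%, 0.783% and 0.548%, and the ratios 3.27 (2.22 to 4.93) and 2.29 (1.52 to 3.51). The libraries thus differed more in the number of high *Meis2* nuclei than in the number of *Adarb2* nuclei. Whether dissection, the sort or the genotype set these numbers cannot be told apart with 1 library per group.

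**Figure D3:**
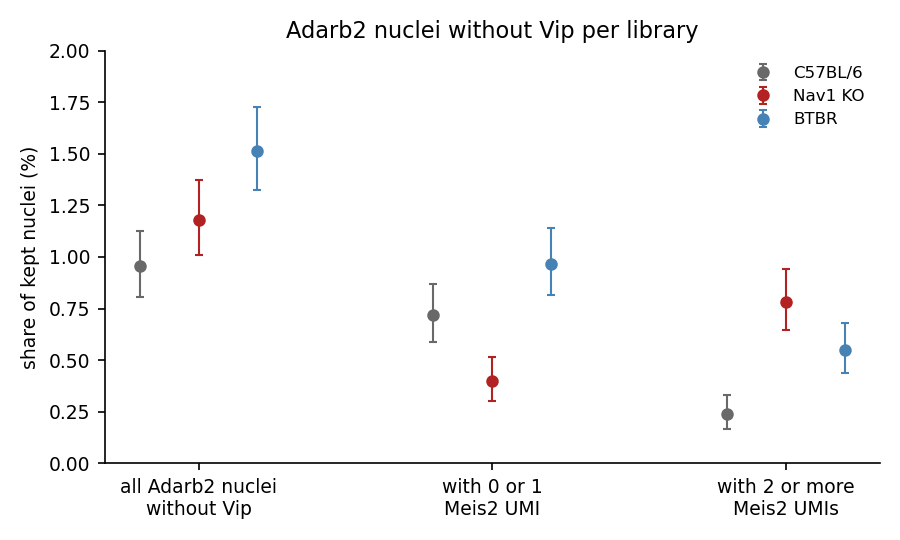
Share of *Adarb2* nuclei without *Vip* among kept nuclei (%) in each library, for all of them and for those with 0 or 1 and with 2 or more *Meis2* UMIs, with exact binomial 95% intervals. Nav1 KO lies above C57BL/6 overall (1.18% against 0.957%) and for high *Meis2* nuclei (0.783% against 0.239%) but below it for the rest (0.398% against 0.718%).

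Against *Vip* nuclei the *Adarb2* nuclei had more neurogliaform genes and less of the peptides that accompany *Vip*. *Vip* nuclei (at least 2 UMIs of *Vip*) numbered 43, 37 and 66. The comparison used counts summed per library and class in edgeR's quasi-likelihood test with the library as a block, so the 3 libraries served as replicates across genotypes, and genes of the rules were left out. Of 9869 genes, 102 (1.03%) were higher and 183 (1.85%) lower in *Adarb2* nuclei at an adjusted p below 0.05. With 0 or 1 *Meis2* UMI in every class, 114 of 8566 genes (1.33%) were higher and 153 (1.79%) lower.

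*Lamp5* stood at 148, 158 and 214 CPM in *Adarb2* nuclei of C57BL/6, Nav1 KO and BTBR and at 11.6, 20.5 and 6.55 CPM in *Vip* nuclei, so the classes did not overlap. Its log2 fold change was 3.84 ± 0.50 (SE, 3 libraries, edgeR adjusted p = 7.1e-12). *Ndnf* was at 163, 131 and 183 CPM against 58.2, 10.3 and 6.55 CPM (2.92 ± 0.45, edgeR adjusted p = 2.05e-08). *Reln* was at 308, 141 and 437 CPM against 58.2, 10.3 and 65.5 CPM (2.65 ± 0.33, edgeR adjusted p = 2.67e-13). Each of these secreted or membrane proteins was higher in 3 of 3 libraries. Of the 11 neurogliaform genes tested, 5 were higher (*Lamp5*, *Reln*, *Ndnf*, the transcriptional regulator *Id2* and the vesicle protein *Sv2c*) and none lower, with a median log2 difference of 1.58 against 0.06 over all genes. *Id2* was not called once any 1 library was left out (edgeR adjusted p of 0.0795, 0.133 and 0.305), nor *Sv2c* without BTBR (0.492). *Npy* did not pass (0.69 ± 0.50, edgeR adjusted p = 0.726), nor did *Kit* (0.16 ± 0.20, 0.864), which passed among nuclei with 0 or 1 *Meis2* UMI.

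Other genes higher in *Adarb2* nuclei included *Mctp1*, a calcium-binding membrane protein (3.0 ± 0.47), *Gda*, guanine deaminase (3.01 ± 0.56), and *Ptprm*, a receptor tyrosine phosphatase (2.82 ± 0.52). *Fam102b*, *Cobl*, *Mhrt*, *Stxbp2* and *Adamtsl1* were also among the 10 highest, but *Vip* nuclei had 0 counts of each in at least 1 library, as they had of *Mctp1* in Nav1 KO. Those 5 lost their calls without at least 1 of the libraries, *Fam102b* and *Cobl* also with 0 or 1 *Meis2* UMI (edgeR adjusted p of 0.0608 and 0.0736), where *Mhrt* and *Adamtsl1* had too few counts to be tested, and *Gda* did so without BTBR (edgeR adjusted p = 0.102).

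Of 11 neuropeptide genes tested, 4 were lower than in *Vip* nuclei (*Crh*, *Penk*, *Tac2* and *Pnoc*) and 1 was higher (*Tac1*, not called with 0 or 1 *Meis2* UMI). *Crh*, corticotropin-releasing hormone, had 12.1, 0 and 0 CPM in *Adarb2* nuclei against 791, 934 and 288 CPM in *Vip* nuclei, and was lower in 3 of 3 libraries (edgeR adjusted p = 6.53e-88). *Tac2*, the neurokinin B precursor, was at 39.2, 34.0 and 135 CPM against 1489, 1129 and 1146 CPM (-4.19 ± 0.55, edgeR adjusted p = 0.0161), and without the Nav1 KO library it no longer passed (adjusted p = 0.520). Of the 5 *Vip* companion genes tested, 4 were lower (*Crh*, *Penk*, *Tac2* and the growth factor gene *Igf1*) and none higher. *Pnoc*, the nociceptin precursor, was at 54.3, 34.0 and 52.6 CPM against 302, 339 and 151 CPM (-2.40 ± 0.29, edgeR adjusted p = 1.21e-13).

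The basket and caudal lists were mostly not higher in *Adarb2* than in *Vip* nuclei. *Cxcl14*, a chemokine gene, was at 148, 63.2 and 142 CPM against 1198, 729 and 439 CPM (-2.64 ± 0.20, edgeR adjusted p = 1.05e-36). *Cnr1* was at 902, 355 and 996 CPM against 966, 1816 and 1546 CPM (-0.99 ± 0.18, edgeR adjusted p = 1.67e-05). The *Cnr1* call was lost without the Nav1 KO library (edgeR adjusted p = 0.178), with 0 or 1 *Meis2* UMI (0.197) and with DESeq2 (0.0899). Of the 7 basket genes tested, 1 was higher (*Col14a1*, a collagen, which lost its call when any 1 library was left out) and 2 lower (*Cnr1* and *Cxcl14*). Of the 7 caudal genes tested, 3 were lower and none higher: the homeobox factor *Prox1* (-1.62 ± 0.32), the serotonin receptor subunit *Htr3a* (-2.86 ± 0.38) and the vesicle protein *Synpr* (-2.42 ± 0.20). *Prox1* was not called with 0 or 1 *Meis2* UMI (edgeR adjusted p = 0.0853), and *Htr3a* was not called by DESeq2 (adjusted p = 0.541). Lower genes that belong to no list were *Cbln2*, a synapse organiser (-3.48 ± 0.38), *Fbln2*, an extracellular matrix protein (-2.89 ± 0.35), *Adra1b*, an adrenergic receptor (-2.87 ± 0.32), and *Vstm2l* (-2.93 ± 0.32).

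Some striatal and bulb genes were higher in *Adarb2* than in *Vip* nuclei, and none of these calls was kept without the high *Meis2* nuclei. Among 7 striatal genes tested, 4 were higher (*Tac1*, *Rgs9*, *Drd1* and *Pde10a*) and 1 lower (*Penk*), and each of the 5 lost its call without at least 1 of the libraries. Without the high *Meis2* nuclei, 0 of 6 were higher and *Penk* was lower. Of 6 bulb genes tested, *Synpr* was lower with and without the high *Meis2* nuclei. *Meis2* and *Tshz1* were higher with all nuclei (1.56 ± 0.19 and 1.74 ± 0.38) and not called without the high *Meis2* ones, where *Meis2* itself was part of the selection. *Nav1* did not differ between the classes beyond its error (-0.20 ± 0.22, edgeR adjusted p = 0.84).

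**Figure D4:**
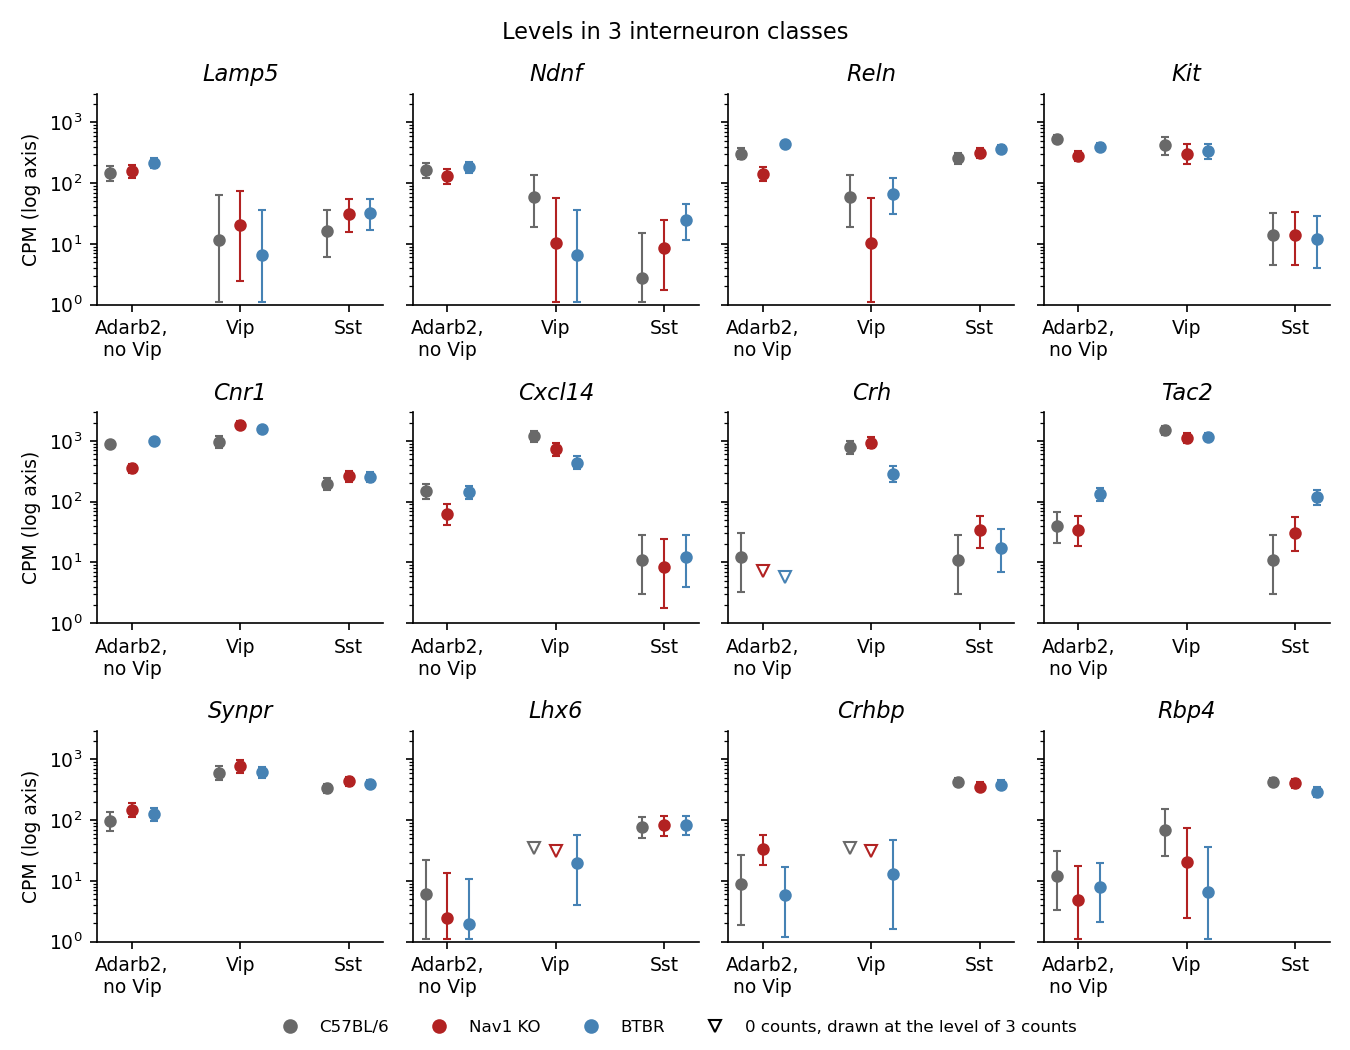
Level of 12 genes (CPM of summed counts, log axis) in *Adarb2* nuclei without *Vip*, *Vip* nuclei and *Sst* nuclei of each library, with exact Poisson 95% intervals; open triangles are 0 counts drawn at the level of 3 counts, and intervals that reach below the axis end at its foot. *Lamp5* and *Ndnf* are highest in the *Adarb2* nuclei, *Crh*, *Tac2* and *Synpr* in the *Vip* nuclei, and *Lhx6*, *Crhbp* and *Rbp4* in the *Sst* nuclei.

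More genes were called against *Sst* than against *Vip* nuclei, and the medial lineage genes tested separated *Sst* from *Adarb2* nuclei without exception. *Sst* nuclei numbered 137, 116 and 152. Their sums held 361831, 354203 and 409759 counts, against 85963, 97447 and 152689 for *Vip* nuclei. The difference in the number of calls was not tested. In the same edgeR fit 410 of 9869 genes (4.15%) were higher and 610 (6.18%) lower in *Adarb2* nuclei, and with 0 or 1 *Meis2* UMI 340 of 8566 (3.97%) and 484 (5.65%). All 5 medial genes tested were lower, among them the transcription factors *Lhx6*, *Sox6* and *Satb1* and the secreted neurexin ligand *Nxph1*. *Lhx6* was at 6.03, 2.43 and 1.95 CPM in *Adarb2* nuclei and at 77.4, 81.9 and 83.0 CPM in *Sst* nuclei (-4.49 ± 0.49, edgeR adjusted p = 1.83e-17). The median of the 5 log2 differences was -3.15 against 0.01 over all genes.

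The 6 *Sst* companion genes tested were all lower in *Adarb2* nuclei (*Elfn1*, *Grin3a*, *Calb1*, *Chodl*, *Cort* and *Pdyn*), and *Chodl* had too few counts to be tested with 0 or 1 *Meis2* UMI. *Cort*, the cortistatin gene, was at 9.05, 19.4 and 9.75 CPM against 224, 248 and 53.7 CPM (-3.62 ± 0.32, edgeR adjusted p = 1.25e-26). The largest called differences of this sign were in *Rbp4*, a retinol-binding protein, at 12.1, 4.86 and 7.80 CPM against 426, 409 and 290 CPM (-5.44 ± 0.30, edgeR adjusted p = 9.86e-69), and in *Lypd6b* (-5.10 ± 0.57). *Crhbp*, which binds corticotropin-releasing hormone, followed at 9.05, 34.0 and 5.85 CPM against 426, 359 and 386 CPM (-4.58 ± 0.26, edgeR adjusted p = 1.27e-63). *Lypd6*, *Tmem132c*, *Klf5* and *Masp1* completed the 10 lowest, with log2 differences of -4.07 to -3.65. *Nos1* (-3.32 ± 0.33) and *Eya4* (-3.23 ± 0.62) were lower although both stand on the neurogliaform list.

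In the other direction *Kit* gave the clearest separation. It was at 528, 284 and 394 CPM in *Adarb2* nuclei and at 13.8, 14.1 and 12.2 CPM in *Sst* nuclei (4.82 ± 0.28, edgeR adjusted p = 1.97e-63). *Lamp5* was at 148, 158 and 214 CPM against 16.6, 31.1 and 31.7 CPM (2.67 ± 0.28, edgeR adjusted p = 2.69e-19). *Lamp5*, *Kit*, *Ndnf*, *Id2* and *Sv2c* were the 5 higher of 11 neurogliaform genes tested, while *Reln* did not pass (-0.17 ± 0.17, adjusted p = 0.653). Of 7 basket genes, 4 were higher (*Cnr1*, *Cxcl14*, *Col14a1* and *Yjefn3*) and *Trpc6*, a cation channel, was lower. *Cnr1* was at 902, 355 and 996 CPM against 196, 263 and 254 CPM (1.60 ± 0.19, edgeR adjusted p = 1.45e-12). Of 7 caudal genes, *Prox1* (3.63 ± 0.54), *Htr3a* (3.92 ± 0.83) and the nuclear receptor *Nr2f1* (1.06 ± 0.31, lost when any 1 library was left out) were higher and *Synpr* was lower. *Htr3a* had 12, 0 and 15 counts in *Adarb2* nuclei, and DESeq2 did not call it (adjusted p = 0.464), nor did edgeR without the BTBR library (0.0633).

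*Col14a1* and *Frem1*, which encode matrix proteins, had no count in the *Sst* nuclei of any library and 36, 12 and 33 and 33, 9 and 31 counts in *Adarb2* nuclei. *Egfr*, the epidermal growth factor receptor (4.54 ± 0.52), *Pde11a*, a phosphodiesterase (5.17 ± 0.69), *Crispld1* (3.74 ± 0.63) and *Vipr2*, a receptor for the VIP peptide (4.53 ± 0.62), were also among the 10 highest. *Vipr2* belonged to the high *Meis2* nuclei, with 25.4, 143 and 121 CPM there and 0, 0 and 16.3 CPM in the other *Adarb2* nuclei.

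Receptor genes for GABA differed between the same classes. Of 12 GABA-A receptor subunits tested, 5 were higher in *Adarb2* than in *Sst* nuclei (*Gabra2*, *Gabra4*, *Gabra5*, *Gabrb2* and *Gabrg3*) and 1 lower (*Gabra3*). *Gabrb2* was at 142, 68.1 and 117 CPM against 49.7, 36.7 and 24.4 CPM (1.54 ± 0.28, edgeR adjusted p = 2.45e-06), higher in 3 of 3 libraries. Of the 5, only *Gabrb2* kept its call when each library was left out in turn, and *Gabra3* lost its own in each case. Without the high *Meis2* nuclei, 3 of the 12 were higher (*Gabra4*, *Gabrb2* and *Gabrg3*) and *Gabra3* was lower. None of the 5 acetylcholine receptor genes tested was called against *Vip* nuclei, and *Chrm3* was lower against *Sst* nuclei (-0.96 ± 0.27, edgeR adjusted p = 0.00535) but not without BTBR (0.327) or with 0 or 1 *Meis2* UMI (0.100). *Erbb4*, the neuregulin receptor of interneurons, stood between the classes: 265, 136 and 283 CPM in *Adarb2* nuclei, 500, 298 and 393 CPM in *Vip* nuclei and 116, 73.4 and 134 CPM in *Sst* nuclei. It was called lower than in *Vip* (-0.79 ± 0.21, edgeR adjusted p = 0.0075) and higher than in *Sst* nuclei (1.04 ± 0.20, 9.88e-06), and the first call was lost without C57BL/6 (0.134), without Nav1 KO (0.0727) or with 0 or 1 *Meis2* UMI (0.439).

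Against *Pvalb* nuclei the comparison was thin, since only 4, 8 and 4 nuclei with 12994, 27653 and 10781 counts met that rule. The median fitted log2 difference over all genes was 0.93, so levels are not set beside the other comparisons. In the same edgeR fit 324 genes (3.28%) were higher and 33 (0.334%) lower in *Adarb2* nuclei, and 235 (2.74%) and 34 (0.397%) with 0 or 1 *Meis2* UMI. Each of the 10 highest, among them *Pbx3*, *Kit*, *Foxp2* and *Cacna2d1*, a calcium channel subunit, had no count in the *Pvalb* nuclei of any library, and *Foxp2* was not called with 0 or 1 *Meis2* UMI (edgeR adjusted p = 0.0698). Lower genes included the medial factor *Satb1* (8, 16 and 18 counts against 2, 8 and 3), *Sox6* and the calcium channel subunit *Cacna2d2* (20, 31 and 53 counts against 11, 26 and 6), together with *Kcnc1*, a potassium channel of fast-spiking cells. Without the Nav1 KO library, which held 8 of the 16 *Pvalb* nuclei, 9 genes were lower and *Satb1* and *Sox6* lost their calls (edgeR adjusted p of 0.343 and 0.0716). Of 8 *Pvalb* companion genes, 5 were tested, with 2 lower (*Kcnc1* and *Kcnc2*) and none higher. With 0 or 1 *Meis2* UMI, 4 were tested, and *Tac1* and *Kcnc1* were lower.

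Between Nav1 KO and C57BL/6 the *Adarb2* nuclei differed in the share of high *Meis2* nuclei, so ratios are given with and without these. Of 3515 genes with at least 40 counts over both libraries, 106 (3.02%) were at least 2-fold higher in Nav1 KO and 160 (4.55%) at least 2-fold lower, with a median ratio of 0.921. Scaling by TMM factors gave 147 higher and 116 lower. With 0 or 1 *Meis2* UMI, 23 of 1497 (1.54%) were higher and 48 (3.21%) lower, with a median ratio of 0.982, and 19 and 61 with TMM factors. No p-value can be given with 1 library per group.

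Among the 5 highest ratios with at least 100 counts were those of *Ptn*, pleiotrophin, at 4.40 (3.05 to 6.50), *Apoe*, apolipoprotein E, at 4.34 (3.45 to 5.50), *Meis2* at 3.30 (2.81 to 3.90) and *Ptgds*, a prostaglandin synthase, at 3.02 (2.19 to 4.25). The lowest were those of *Col25a1*, a membrane collagen, at 0.176 (0.104 to 0.285), and *Cck* at 0.282 (0.217 to 0.363), before *AY036118*, *Rap1gap* and *Ctnnd2*. *Cck* stood at 204 CPM in Nav1 KO and 724 in C57BL/6, and its ratio was 0.0903 (0.0501 to 0.152) without possible doublets. *Meis2* was at 1823 CPM in Nav1 KO and 552 CPM in C57BL/6.

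Among nuclei with 0 or 1 *Meis2* UMI, *Col25a1* (0.185, 0.0893 to 0.347) and *Cck* (0.359, 0.262 to 0.484) remained among the 5 lowest with *Nbea*, *AY036118* and *Gsdme*. The 5 highest were then *mt-Nd1* (2.06, 1.67 to 2.55), *mt-Cytb*, *Cpne7*, *AC149090.1* and *Afdn*, again with at least 100 counts. *Meis2* could not be among them by construction. *Ptn* (3.83, 2.13 to 7.17) and *Ptgds* (2.38, 1.42 to 4.07) had fewer counts than that and kept ratios above 2, and *Apoe* stood at 1.68 (1.16 to 2.42). In *Vip* nuclei the ratio of *Cck* was 1.48 and in *Sst* nuclei 1.55, above 1 in both, and the difference between classes was not tested.

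The basket list stood further below C57BL/6 than the neurogliaform list, which was not tested. All 5 of its genes with enough counts were at least 2-fold lower in Nav1 KO, and the summed level was 0.349 times that of C57BL/6 (0.305 to 0.400). With 0 or 1 *Meis2* UMI, 2 of 5 were and the summed ratio was 0.536 (0.460 to 0.624). *Cnr1* (chromosome 4, 33924593 to 33948831) went from 0.393 (0.321 to 0.481) to 0.636 (0.507 to 0.795), and was 0.206 (0.125 to 0.327) without possible doublets. For the neurogliaform list the summed ratio was 0.613 (0.553 to 0.679) over all *Adarb2* nuclei and 1.05 (0.931 to 1.17) with 0 or 1 *Meis2* UMI. *Npy* (chromosome 6, 49822710 to 49829507) moved in the same way from 0.535 to 0.991 and *Kit* from 0.539 to 1.03. The *Npy* ratio also rested on few nuclei, since it was 0.328 (0.270 to 0.397) when nuclei with at least 5% mitochondrial counts were left out, which kept 156 of the 166 Nav1 KO and 132 of the 140 C57BL/6 nuclei. Without possible doublets (38 and 33 nuclei left) it reversed to 1.92 (1.29 to 2.94). *Lamp5* had a ratio of 1.07 (0.726 to 1.58) over all *Adarb2* nuclei and 2.26 (1.46 to 3.53) with 0 or 1 *Meis2* UMI. It was 1.68 (1.05 to 2.75) with at least 3 *Adarb2* UMIs and 3.79 (1.09 to 20.3) without possible doublets, the latter from 16 and 3 counts. *Nav1* itself was at 371 CPM in C57BL/6 and 228 CPM in Nav1 KO, a ratio of 0.616 (0.466 to 0.812), and 0.727 (0.501 to 1.04) with 0 or 1 *Meis2* UMI, whose interval included 1. Without possible doublets it was 0.316 (0.146 to 0.645). In *Vip* nuclei *Nav1* was at 337 CPM in C57BL/6 and 359 CPM in Nav1 KO, and in the few *Pvalb* nuclei at 770 and 542 CPM. The difference between classes was not tested.

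**Figure D5:**
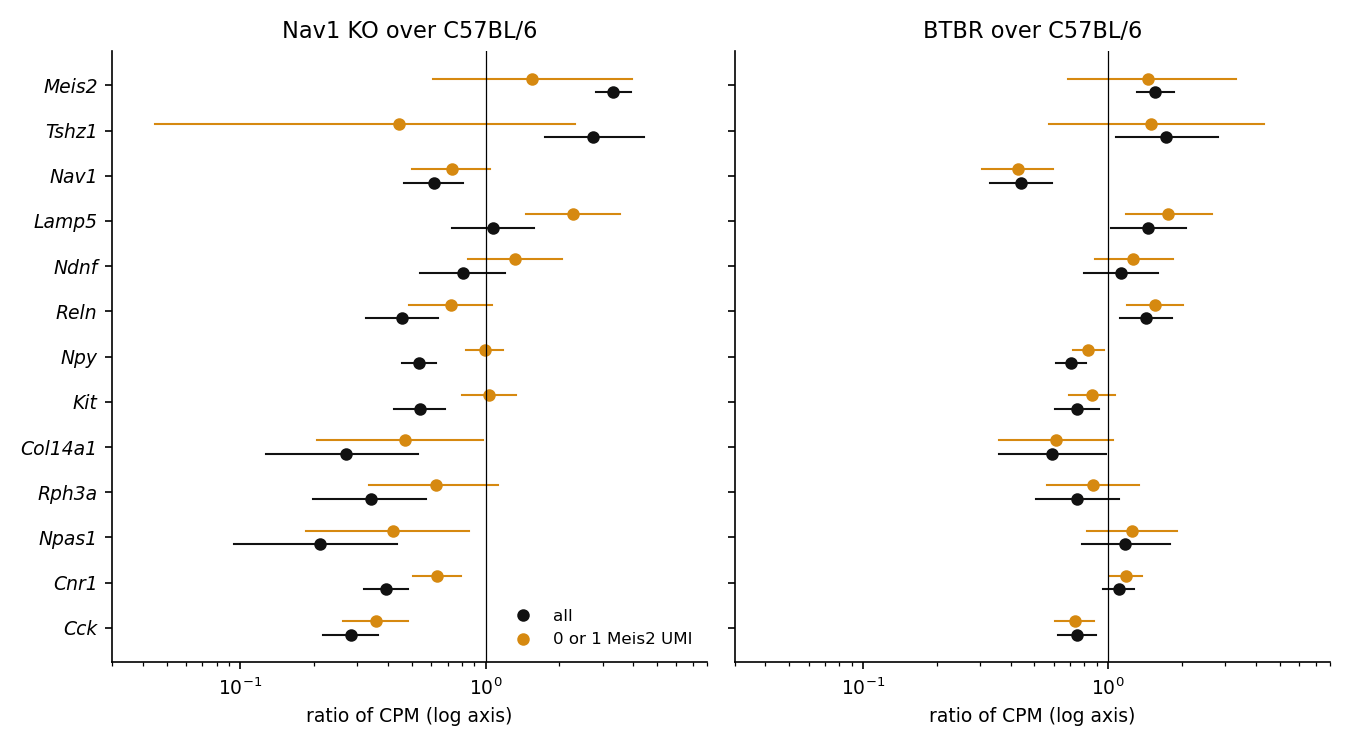
Ratio of CPM in *Adarb2* nuclei of Nav1 KO (left) and BTBR (right) to C57BL/6 (log axis), over all nuclei (black) and over those with 0 or 1 *Meis2* UMI (orange), with binomial 95% intervals from counting error. The C57BL/6 library is shared; the ratios of *Npy* and *Kit* for Nav1 KO move to about 1 without the high *Meis2* nuclei, while that of *Cck* stays below 1.

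Between BTBR and C57BL/6, 1 of 9 neurogliaform and 0 of 6 basket genes with enough counts passed 2-fold. These lists are too short to be set against the shares over all genes, which follow. Of 4237 genes, 154 (3.63%) were at least 2-fold higher in BTBR and 81 (1.91%) at least 2-fold lower, with a median ratio of 1.02. Without the high *Meis2* nuclei it was 94 of 2555 (3.68%) and 38 (1.49%). The highest ratios were those of *Scg5*, a secretory granule chaperone, at 2.59 (1.93 to 3.52), *Dalrd3* at 2.54 (1.90 to 3.45), *Tm6sf1* at 2.52, *Ptn* at 2.47 and *Clcn2*, a chloride channel, at 2.47. The lowest were *AC149090.1* at 0.240 (0.201 to 0.285), *AY036118* at 0.290 (0.254 to 0.331), *Tspoap1* at 0.425, *Nav1* at 0.441 (0.330 to 0.587) and *Gm15594* at 0.445. *Scg5* and *Dalrd3* stayed among the 5 highest and *Tspoap1*, *Nav1*, *AY036118* and *AC149090.1* among the 5 lowest with 0 or 1 *Meis2* UMI. This comparison and the previous one share the C57BL/6 library.

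*Nav1* was at 164 CPM in *Adarb2* nuclei of BTBR against 371 CPM in C57BL/6. The ratio was 0.422 over all kept nuclei and 0.505 in both *Sst* and *Vip* nuclei, so a lower level was not limited to *Adarb2* nuclei. Among list genes *Tac2* was at 135 CPM against 39.2 CPM (3.43, 1.88 to 6.77), *Lamp5* at 214 against 148 CPM (1.45, 1.03 to 2.08, and 3.38 without possible doublets) and *Sv2c* at 136 against 63.3 CPM (2.15, 1.31 to 3.69). *Npy* was at 825 against 1167 CPM (0.706, 0.614 to 0.813), and reversed to 1.61 (1.11 to 2.41) without possible doublets. None of 6 basket genes with enough counts passed 2-fold, and the summed ratio was 0.914 (0.830 to 1.01). *Cck* was at 0.746 (0.625 to 0.890), and at 0.341 (0.264 to 0.440) without possible doublets, that is, past 2-fold.

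Markers of other cells were present in *Adarb2* nuclei and moved with the library. The ensheathing glia list, led by *Apod*, was at 21.1 CPM in C57BL/6 (2 of 4 genes above 0), 292 CPM in Nav1 KO (4 of 4) and 83.8 CPM in BTBR (4 of 4), and at 22.1, 136 and 68.3 CPM in *Sst* nuclei. The endothelial and mural list, led by *Vtn*, was at 12.1, 187 and 37.0 CPM (2, 5 and 3 of 6 genes above 0). The meningeal fibroblast list was at 12.1, 119 and 68.2 CPM, and was led by *Slc6a13* in Nav1 KO and by *Foxd1* in the other libraries. Nav1 KO had the highest level of all 3 lists and C57BL/6 the lowest. Their part in the ratios of *Apoe*, *Ptn* and *Ptgds* was not tested.

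Lists of astrocytes (561, 535 and 511 CPM, led by *Slc1a2*), oligodendrocytes (278, 306 and 316 CPM), microglia (33.2, 24.3 and 56.5 CPM) and excitatory neurons (154, 124 and 131 CPM) differed less between libraries. Against *Sst* nuclei, *Slc1a2* and *Slc4a4* of the astrocyte list, *Pdgfra* and *Vcan* of the oligodendrocyte precursor list and *Apod* were called higher in *Adarb2* nuclei, the last not without Nav1 KO (edgeR adjusted p = 0.92). With 0 or 1 *Meis2* UMI, *Slc4a4* (edgeR adjusted p = 0.563) and *Apod* (0.883) were not called and *Pdgfra* had too few counts to be tested. The striatal list, led by *Pde10a*, was at 1653, 1164 and 1144 CPM, with 9, 7 and 9 of 9 genes above 0. It was at 3076, 1228 and 2019 CPM in high *Meis2* nuclei and at 866, 1037 and 552 CPM in the others. Of the dopamine receptors that mark both types of medium spiny neuron, *Drd1* had 29, 19 and 31 counts in C57BL/6, Nav1 KO and BTBR and *Drd2* 4, 0 and 2. *Drd1* was called higher than in *Vip* and in *Sst* nuclei, and neither call was kept with 0 or 1 *Meis2* UMI (edgeR adjusted p of 0.332 and 0.419). The bulb interneuron list was at 1550, 2949 and 1733 CPM, led by *Dlx6os1* in C57BL/6 and by *Meis2* in Nav1 KO and BTBR. *Th* and *Pax6*, which define bulb interneuron types, were excluded by the rule and so are at 0 by construction, and 11, 50 and 59 nuclei were left out for them.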

How the data were processed

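Single nuclei from PFC were sequenced on the 10x platform in 3 libraries. Per the labels, the authors aligned and counted reads against mm10 with Cell Ranger 6.0.0 and deposited filtered matrices of UMI counts per gene and nucleus, which are not normalized. The libraries held 15402 (C57BL/6), 14623 (Nav1 KO) and 15238 (BTBR) barcodes. Nuclei with under 200 genes (2, 1 and 0) or at least 10% mitochondrial counts (772, 567 and 460) were left out. The kept nuclei held 38704723, 50965774 and 48948184 counts.

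The members, the 31 gene lists (214 genes) and the tests were chosen with earlier results of these data known, so no list is independent evidence. The lists of medium spiny neurons, olfactory bulb cells, glia and vessels stood for other cells. *Vip*, *Sst* and *Pvalb* nuclei met the same limits on *Gad1*, *Gad2*, *Slc32a1*, *Slc17a7*, *Th* and *Pax6* and had at least 2 UMIs of the gene that names them. *Vip* nuclei had no *Pvalb* and at most 1 UMI of *Sst*, *Sst* nuclei no *Vip* or *Pvalb*, and *Pvalb* nuclei no *Vip* and at most 1 UMI of *Sst*. The latter 2 classes had at most 1 UMI of *Adarb2*. Oligodendrocytes had at least 3 UMIs of *Mbp*, 1 or more of *Mag* or *Mog* and none of *Slc17a7*, *Gad1*, *Gad2* or *Slc32a1*. Doublets were treated only by alternatives without nuclei that had 2 or more UMIs of other cells' lists or UMIs above the 95th percentile. The lists used were those of medium spiny neurons, mitral and tufted cells, glia, vessels and meninges. They hold genes that *Vip* nuclei also carried, such as *Penk* (361, 205 and 249 CPM in C57BL/6, Nav1 KO and BTBR).

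Counts were summed per library and class into 12 sums and tested with edgeR 4.0.16 (R 4.3.3), TMM factors and the robust quasi-likelihood F-test, with class and library in the model, over genes with at least 30 counts. DESeq2 1.42.0 was an alternative and, where its independent filtering left an adjusted p undefined, the gene was not called. Adjusted p-values are Benjamini-Hochberg values over all genes tested, with a threshold of 0.05. The 3 libraries differ in genotype and served as replicates of the class difference. Each sum comes from 1 library and the library is a block, so the p-values rest on how far class differences varied between these libraries. That spread was estimated over all 4 classes and in part shared across genes, and it may be technical. The script was tested on simulated data.

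Libraries were compared by ratios of CPM (counts per 1000000 of the summed counts) over genes with at least 40 counts, with no test. Intervals are exact Poisson (levels), Clopper-Pearson (shares) and binomial (ratios) at 95% and cover counting error only, and a count of 0 was bounded with 3 counts. Named genes were all list genes tested, the 10 highest and 10 lowest log2 fold changes past the threshold with at least 50 counts and 1 direction in all libraries, and the 5 highest and 5 lowest ratios with at least 100 counts. Figures and sums used Python 3.11.15, numpy 2.4.6, scipy 1.17.1, pandas 2.3.3 and matplotlib 3.10.9. Positions are those of GENCODE genes on mm10. Values of some single genes that the rules would name are not reported here.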

Additional observations from a re-analysis of the deposited data

Results flagged for a closer look

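Some differences between *Adarb2* and *Sst* nuclei had opposite directions in different libraries, and these differences between libraries were not tested. *Rph3a*, a synaptic vesicle protein of the basket list, had a ratio of *Adarb2* over *Sst* nuclei of 2.03 (1.26 to 3.33) in C57BL/6 and 0.541 (0.302 to 0.949) in Nav1 KO. *Npas1*, a caudal transcription factor, had 1.80 (1.05 to 3.17) in C57BL/6, 0.215 (0.0960 to 0.438) in Nav1 KO and 0.619 (0.446 to 0.858) in BTBR. In that order *Npas1* was at 173, 72.5 and 216 CPM in *Adarb2* nuclei with 0 or 1 *Meis2* UMI and at 8.47, 0 and 14.5 CPM in the others. The part of the high *Meis2* nuclei in these ratios was not tested. Among endothelial genes, *Flt1* had 0 counts in *Adarb2* nuclei of C57BL/6 (ratio 0, upper bound 0.435) and a ratio of 7.75 (1.07 to 340) in Nav1 KO. *Cldn5* was likewise at 0 in C57BL/6 (upper bound 0.639) with a ratio of 3.73 (1.03 to 20.4) in Nav1 KO.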

How the results depend on the processing

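The share of kept nuclei (C57BL/6, Nav1 KO, BTBR) became 0.643%, 0.690% and 0.974% with at least 3 *Adarb2* UMIs, 1.69%, 2.23% and 2.63% with at least 1, 0.718%, 0.398% and 0.968% with 0 or 1 *Meis2* UMI, and 0.597%, 0.664% and 1.25% after thinning to 1000 UMIs. Without possible doublets it was 1.67% in Nav1 KO and 2.85% in BTBR. The ratio of shares reversed to 0.555 for Nav1 KO with 0 or 1 *Meis2* UMI (among the 4 interneuron classes 0.734, 0.521 to 1.02), and for BTBR was 2.56 without possible doublets and 2.10 after thinning. *Lamp5* was at 58.3 CPM in C57BL/6 and 221 CPM in Nav1 KO without possible doublets, in Nav1 KO at 219 with at least 3 *Adarb2* UMIs, 122 with at least 1 and 392 with 0 or 1 *Meis2* UMI, and in BTBR at 176 and 304 under the latter 2.

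Genes at least 2-fold higher and lower in Nav1 KO numbered 106 and 160. They became 55 and 87 with at least 3 *Adarb2* UMIs, 187 and 251 with at least 1, 17 and 15 without possible doublets, 23 and 48 with 0 or 1 *Meis2* UMI (19 and 61 with TMM), 313 and 432 from 20 counts and 19 and 34 from 100 counts. In BTBR the 154 and 81 became 80 and 45, 30 and 25 without possible doublets, 94 and 38 with 0 or 1 *Meis2* UMI (93 and 38 with TMM), 442 and 240 from 20 counts and 21 and 9 from 100 counts. Where at least 1 of both intervals excluded 1, directions reversed in Nav1 KO for *Tshz1* (0.443, with TMM 0.423) and *Kit* (1.03, but 0.987 with TMM) with 0 or 1 *Meis2* UMI and for *Npy* (1.92) without possible doublets, and in BTBR for *Npy* (1.61) and *Reln* (0.846) without possible doublets. Other ratios crossed 1 with both intervals including it, such as *Ndnf* in Nav1 KO (0.806 to 1.25 with at least 3 *Adarb2* UMIs), although without possible doublets *Ndnf* was at 0.213 (0.0377 to 0.829, 3 and 10 counts). Without possible doublets *Cck* was at 0.0903 in Nav1 KO and 0.341 in BTBR, *Nav1* at 0.316 and 0.276 and *Tshz1* in BTBR at 3.55, and with under 5% mitochondrial counts *Npy* was at 0.328 in Nav1 KO.

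Genes higher and lower than in *Vip* nuclei (102 and 183) were 10 and 15 without possible doublets, 42 higher with DESeq2, 36 and 114 with DESeq2 and 0 or 1 *Meis2* UMI, and 119 lower with no filter on low counts. Leaving out 1 library gave 39 to 45 and 92 to 113. Against *Sst* nuclei (410 and 610) they were 85 and 96, 149 and 272 with DESeq2, and 156 and 215 with DESeq2 and 0 or 1 *Meis2* UMI, and leaving out 1 library gave 213 to 253 and 314 to 409. Against *Pvalb* nuclei (324 and 33) they were 54 and 2, 68 and 64, and 74 and 54, and leaving out 1 library gave 115 to 144 and 9 to 27. Without the library as a replicate block the counts were 75 and 124 against *Vip* and 299 and 438 against *Sst* nuclei.

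Log2 differences from *Vip* nuclei reversed for *Meis2* (-0.011) with DESeq2 and 0 or 1 *Meis2* UMI, *Sox6* (-0.083) with at least 3 *Adarb2* UMIs, *Nav1* with 0 or 1 *Meis2* UMI (0.11, with DESeq2 0.000845) and *Pde10a* without possible doublets (-0.34). Leaving out 1 library gave -0.018 to 1.41 for *Npy*, -2.24 to 2.97 for *Lhx6*, -0.10 to 0.89 for *Sox6* and -0.40 to 0.0081 for *Nav1*. From *Sst* nuclei they reversed for *Reln* (0.068 with at least 3 *Adarb2* UMIs, 0.38 with 0 or 1 *Meis2* UMI, 0.29 with DESeq2 too), *Nav1* (0.027, 0.29 and 0.25 in the same order), *Rgs9* (-0.23 and -0.12) and *Apod* (-0.19 and -0.26) with 0 or 1 *Meis2* UMI without and with DESeq2, and *Pde10a* (-0.16) and *Chrm3* (0.23) without possible doublets. Leaving out 1 library gave -0.44 to 0.23 for *Reln* and -0.20 to 0.16 for *Nav1*. *Kcnc2* reversed against *Pvalb* nuclei (0.0074) without possible doublets.

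Over all values recomputed for single genes, 1675 kept direction and side of the threshold, 363 lost a call, 22 gained one, 34 ratios moved beyond their interval and 30 values reversed. The causes were not tested. Removing possible doublets left 33, 38 and 80 members and 12, 7 and 22 *Vip* nuclei, so fewer genes were tested. That filter took out most kept nuclei, so the changes under it cannot be read as effects of doublets alone. The alternatives with 0 or 1 *Meis2* UMI and the 95th percentile alone were chosen after seeing the data. The test of *Lamp5* against *Sncg* nuclei and its alternatives were not run, since no member of C57BL/6 or Nav1 KO had *Sncg*. Few counts limit *Sncg*, *Htr3a* and *Lhx6*, and few nuclei the *Pvalb* comparison.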
